A study of Mus musculus with 2 samples.

Results

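The 30 genes described here are those of sterol synthesis and its control, measured in the retinal pigment epithelium (RPE)-choroid of mice lacking the aryl hydrocarbon receptor (AhR) and of controls. They are the 30 rows of the count table, out of 23420 gene rows, whose names are on a list of enzymes from acetyl-CoA to cholesterol and of regulators and targets of the sterol regulatory element-binding proteins (SREBPs). The list holds 8 enzymes of the mevalonate pathway, 10 enzymes from squalene to cholesterol, 7 genes of SREBP control, 2 of sterol transport and 3 of fatty acid synthesis and desaturation. It was drawn up by function, but the gene set was chosen by values of this same genotype contrast in the same 6 libraries, so its genotype values are a description of these libraries and not independent evidence. All 30 passed the filter on low counts, with between 143 and 32447 counts per library.

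Polyadenylated RNA of untreated mice aged 11 to 13 months was sequenced from 3 animals per group, with the RPE-choroid of 2 eyes pooled per library. One group is labelled AhR -/- (strain B6.129-AhRtm1Bra/J), which carries a targeted germline allele of Ahr, and the other AhR +/+ (strain C57BL6/J), so that any strain difference linked to the allele goes with genotype. The question is which transcripts of this tissue differ between the genotypes. The labels name the animals as separate, and p-values set the difference between the groups against the spread between animals within them, in these 6 libraries.

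Cells make cholesterol from acetyl-CoA through mevalonate, isoprenoids, squalene and lanosterol. When sterol in the endoplasmic reticulum is low, the escort protein SCAP carries the SREBPs to the Golgi, where the site-1 and site-2 proteases (Mbtps1, Mbtps2) release their transcription factor domain. When sterol is high, INSIG proteins hold SCAP back. SREBP-2 drives mainly the cholesterol genes and SREBP-1c mainly those of fatty acids. RPE cells take up and handle much lipid from shed photoreceptor outer segments and from the blood, and also synthesize sterol.

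Each library held between 18058725 and 28692624 counts in genes. Levels are given as CPM, the count scaled to library size, and sets of 3 values follow the order of animals 1, 2 and 3. Ahr itself had 41.4, 45.4 and 40.6 CPM in the knockout-labelled and 19.7, 20.2 and 26.0 CPM in the wild-type animals. Reads from outside the targeted part of Ahr are in that count, so it cannot check the allele, and the direction is not that of a lost transcript, so the libraries are called knockout-labelled. The pigment epithelium was present in every library, with Rpe65, the visual cycle isomerase, between 1326 and 2987 CPM. Reads aligned to more than 1 place took 22.9% to 25.1% of all tallied reads in knockout-labelled and 18.7% to 19.4% in wild-type libraries, and the part of this difference in the results was not tested. Xist, the transcript of the inactive X chromosome, stood at 821 and 844 CPM in animal 1 of the 2 groups and at no more than 4.05 CPM in the others.

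The SREBPs bind sterol elements next to boxes for NF-Y, a trimeric CCAAT-binding factor, and promoters of 4 members that stood higher in the knockout-labelled libraries are shown with that of Mvk, whose groups overlapped. RefSeq promoter windows (GRCm38.p6, 250 bases before to 50 after a start, in the direction of the gene) were at hand for 23 members, with 31 windows. Capitals mark matches, on either strand, to the sterol element TCACNCCAC, its shorter core CACCCCAC, the E-box CACGTG or the NF-Y box CCAAT; the sterol element and its core can overlap. The windows lie at chr13:119690101-119690400 (plus strand) for Hmgcs1, chr5:28071162-28071461 (plus) for Insig1, chr5:4104648-4104947 (minus) for Cyp51, chr13:8885356-8885655 (plus) for Idi1 and chr5:114444019-114444318 (plus) for Mvk.
Hmgcs1: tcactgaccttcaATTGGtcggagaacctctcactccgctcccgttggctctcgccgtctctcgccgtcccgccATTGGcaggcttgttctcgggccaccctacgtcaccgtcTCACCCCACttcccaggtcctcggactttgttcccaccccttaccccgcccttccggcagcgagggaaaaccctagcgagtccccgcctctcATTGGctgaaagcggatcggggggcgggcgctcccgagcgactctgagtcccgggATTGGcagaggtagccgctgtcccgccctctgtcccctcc
Insig1: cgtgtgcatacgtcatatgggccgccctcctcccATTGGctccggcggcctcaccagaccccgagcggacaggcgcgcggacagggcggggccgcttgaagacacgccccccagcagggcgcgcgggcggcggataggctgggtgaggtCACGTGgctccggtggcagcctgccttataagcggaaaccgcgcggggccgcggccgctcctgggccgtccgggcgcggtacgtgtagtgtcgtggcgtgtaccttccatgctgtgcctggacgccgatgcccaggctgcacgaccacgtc
Cyp51: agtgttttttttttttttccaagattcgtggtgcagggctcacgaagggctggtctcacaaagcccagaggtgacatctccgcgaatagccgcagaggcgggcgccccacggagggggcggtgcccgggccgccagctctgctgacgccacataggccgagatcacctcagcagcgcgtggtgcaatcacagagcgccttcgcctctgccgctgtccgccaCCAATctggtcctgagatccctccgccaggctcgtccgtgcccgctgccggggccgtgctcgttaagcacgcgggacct
Idi1: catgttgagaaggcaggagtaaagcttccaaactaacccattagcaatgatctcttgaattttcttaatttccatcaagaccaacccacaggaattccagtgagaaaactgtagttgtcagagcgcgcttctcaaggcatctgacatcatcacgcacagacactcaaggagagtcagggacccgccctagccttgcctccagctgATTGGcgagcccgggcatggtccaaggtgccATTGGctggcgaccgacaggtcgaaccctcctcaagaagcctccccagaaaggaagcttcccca
Mvk: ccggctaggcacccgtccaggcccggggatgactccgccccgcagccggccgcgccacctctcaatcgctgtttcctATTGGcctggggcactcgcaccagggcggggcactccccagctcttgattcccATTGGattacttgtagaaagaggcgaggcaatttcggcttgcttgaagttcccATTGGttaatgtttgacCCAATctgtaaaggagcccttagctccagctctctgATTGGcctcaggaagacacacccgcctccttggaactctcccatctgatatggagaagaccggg

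Hmgcs1 was the 1 member of the 23 with an exact match to TCACNCCAC, at position -137 relative to its start, and had 4 NF-Y boxes. Other forms of the sterol element were not searched, so a window without this match may still hold one. Insig1 had an E-box at position -101, and Mvk had 5 NF-Y boxes. An NF-Y box lay in a window of 19 of the 23 members (82.6%), against 42.2% of the 11584 tested genes with a window. The 4 members without one were Acat2, Mbtps1, Mbtps2 and Scap. The sterol element matched 4.35% of members and 1.5% of tested genes, and the core, in Acat2 and Hmgcs1, 8.7% and 3.95%. The E-box lay in Dhcr7, Hsd17b7, Insig1, Sc5d and Scap, 21.7% of members against 11.1% of tested genes. The GC box GGGCGG (82.6% against 65.3%) and the AhR core GCGTG (65.2% against 53.1%) were also counted, on both strands. Over all 32851 windows of the table the shares were 1.24% for the sterol element, 2.87% for the core, 7.15% for the E-box, 37.4% for the NF-Y box, 35.7% for the GC box and 32.4% for the AhR core. The median GC content of the windows was 60.3% in members and in tested genes. These matches describe letters in a window and say nothing of binding.

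**Figure D1:**
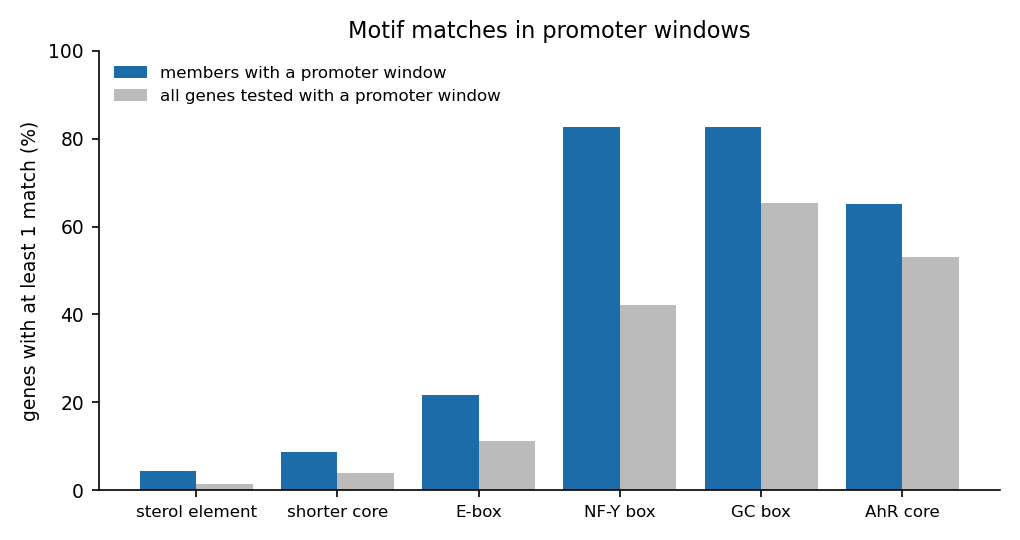
Share of genes (%) with at least 1 match to each motif in a promoter window, for the 23 members with a window (blue) and the 11584 tested genes with one (grey). The NF-Y box is in 82.6% of members and 42.2% of tested genes.

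Most genes of cholesterol synthesis stood higher in the knockout-labelled libraries, while the SREBP genes themselves did not. The log2 fold change, knockout-labelled over wild type, lay above 0 for 23 of the 30 members, against 51.2% of the 15796 genes tested, and its median was 0.30, against 0.01 over all genes tested. For 15 members every knockout-labelled library lay above every wild-type library, against 9.96% of the 15766 genes tested other than the members, and for 0 members every one lay below, against 9.98%. The edgeR quasi-likelihood test called 0 of the 30 members at a Benjamini-Hochberg adjusted p under 0.05, against 0.0506% of all genes tested, and the lowest adjusted p of a member was 0.126. Before adjustment 14 members with a p under 0.05 were higher, against 7.55% of all genes tested, and 1 was lower, against 6.62%. DESeq2 called Cyp51, Insig1, Hmgcs1 and Sqle, against 3.01% of its genes, and the edgeR exact test Cyp51 and Insig1, against 2.26%. Nothing further is read from these counts, since this contrast was used to choose the set. In bulk tissue such as this, fewer cells of a type and less RNA per cell cannot be told apart.

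**Figure D2:**
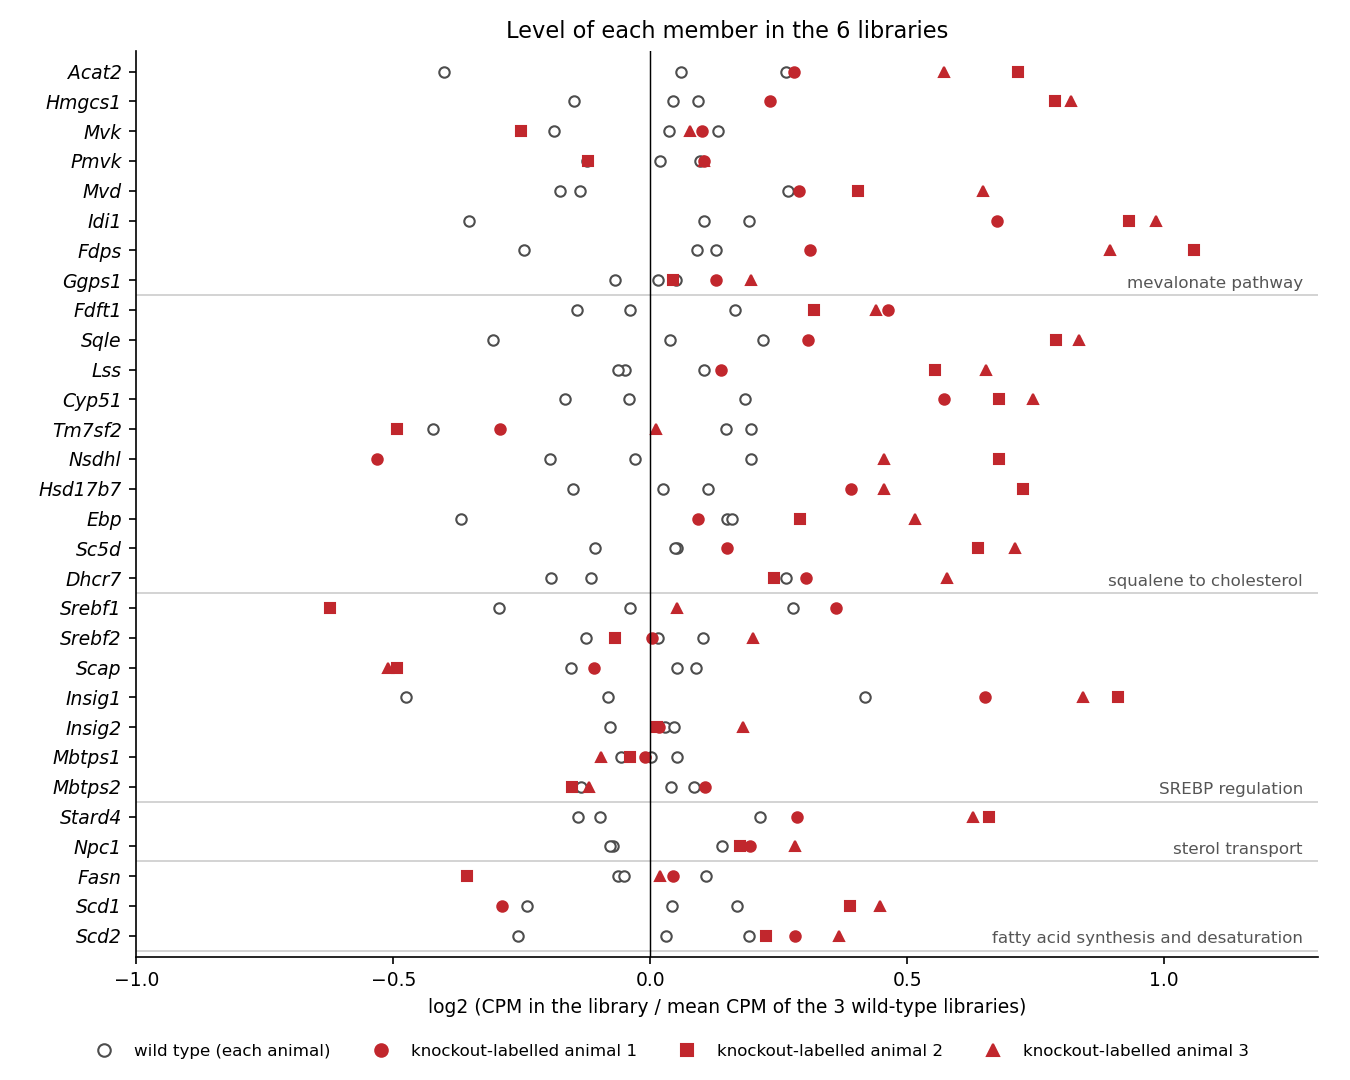
Log2 ratio of the CPM of each member in each library to the mean CPM of the 3 wild-type libraries; open circles are wild-type animals and red symbols are knockout-labelled animals 1 (circle), 2 (square) and 3 (triangle). For 15 members all red symbols lie to the right of all open circles, and for Srebf1, Srebf2, Insig2, Mbtps1 and Mbtps2 the groups overlap.

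The first enzymes of the pathway did not overlap between groups. Hmgcs1 encodes cytosolic HMG-CoA synthase, which condenses acetoacetyl-CoA with acetyl-CoA, and had 173, 255 and 260 CPM in the knockout-labelled and 133, 157 and 152 CPM in the wild-type animals. All 3 knockout-labelled libraries were above all 3 of the wild type, with animal 1 nearest to them (log2 fold change 0.64, SE 0.17; edgeR adjusted p = 0.185). Of the exonic bases of Hmgcs1, 12.1% are shared with Gm48342 on the opposite strand. Acat2, the cytosolic thiolase that makes acetoacetyl-CoA, had 65.5, 88.6 and 80.2 CPM against 40.9, 56.2 and 64.8. Its groups did not overlap but knockout-labelled animal 1 lay within 1 CPM of the highest wild-type library (0.53, SE 0.19), and 45.9% of the 50-base windows of its longest transcript also occur in other genes, mostly its neighbour copy Acat3, so its count is uncertain.

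The kinases that follow showed no such gap. Mvk, mevalonate kinase, had 46.0, 36.0 and 45.2 CPM in the knockout-labelled and 37.7, 47.0 and 44.0 CPM in the wild-type animals, and Pmvk, phosphomevalonate kinase, ranged from 32.4 to 38.0 CPM over all 6 libraries. Their groups overlapped, with log2 fold changes of -0.01 (SE 0.15) and 0.03 (SE 0.14). Mvd, the decarboxylase that makes isopentenyl diphosphate, ranged from 19.8 to 25.4 CPM in knockout-labelled and from 14.4 to 19.5 in wild-type libraries, which did not overlap (0.46, SE 0.19).

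The isoprenoid enzymes showed the largest log2 fold change of any member. Idi1, isopentenyl-diphosphate isomerase (chr13:8885501-8892451, plus strand, GRCm38), had 12.0, 14.4 and 14.9 CPM in the knockout-labelled and 5.90, 8.10 and 8.60 CPM in the wild-type animals. The groups were apart in every library (log2 fold change 0.87, SE 0.24; edgeR adjusted p = 0.185). Fdps, farnesyl diphosphate synthase (chr3:89093588-89101959, minus strand), had 22.6, 38.0 and 33.9 CPM against 19.9, 19.4 and 15.4. Knockout-labelled animal 1 was again nearest to the wild type (0.79, SE 0.22; edgeR adjusted p = 0.186). Of the 50-base windows of Idi1, 30.5% occur in other genes, mostly Gm13502, and 26.7% of the exonic bases of Fdps are shared with Gm43738 on the same strand, so both counts are uncertain. Ggps1, which leads away from sterols to geranylgeranyl diphosphate, overlapped between groups, with 23.8 to 26.5 CPM in knockout-labelled and 22.0 to 23.9 in wild-type libraries (0.12, SE 0.15).

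From squalene on, 9 of 10 enzymes had a log2 fold change above 0, against 51.2% of all genes tested, and 6 were higher without overlap, against 9.96% of genes other than the members. Fdft1, squalene synthase, had 78.4, 71.0 and 77.1 CPM in the knockout-labelled and 51.6, 63.8 and 55.3 CPM in the wild-type animals. Here knockout-labelled animal 1 was the highest library (0.41, SE 0.12), while 18.3% of the gene's exonic bases are shared with Ctsb on the opposite strand. Sqle, squalene epoxidase, a rate-limiting step, had 65.9, 92.0 and 94.9 CPM against 54.7, 62.0 and 43.1 (0.66, SE 0.18; edgeR adjusted p = 0.186). Lss, which closes the rings to lanosterol, had 37.9, 50.6 and 54.2 CPM against 33.3, 37.1 and 33.0. In Sqle and Lss knockout-labelled animal 1 lay just above the highest wild-type library and animals 2 and 3 well above it (Lss 0.47, SE 0.16).

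Cyp51, lanosterol 14-alpha-demethylase (chr5:4081145-4104746, minus strand), had the lowest adjusted p of the 30. It had 78.2, 84.2 and 88.2 CPM in the knockout-labelled and 46.8, 59.8 and 51.1 CPM in the wild-type animals, or on average 83.5 ± 5.02 and 52.6 ± 6.59 (SD, n = 3 per group). All 3 animals of the knockout-labelled group were alike and above the wild type (0.67, SE 0.13; edgeR adjusted p = 0.126). Over 16 other settings its adjusted p ran from 0.00393 to 0.503.

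The late steps were less even. Hsd17b7, the 3-ketosteroid reductase, had 31.7, 39.9 and 33.1 CPM in the knockout-labelled and 24.6, 26.1 and 21.8 CPM in the wild-type animals (0.53, SE 0.16). Sc5d, lathosterol oxidase, had 65.4, 91.8 and 96.4 CPM against 61.2, 54.8 and 61.0 (0.52, SE 0.16). Neither overlapped, though knockout-labelled animal 1 was close to the wild type for Sc5d. Nsdhl, the C4-decarboxylating dehydrogenase, split the knockout-labelled group, with 12.5 CPM in animal 1, the lowest of all 6 libraries, and 29.0 and 24.8 CPM in animals 2 and 3, the highest. Wild-type animals held 17.7, 20.7 and 15.8 CPM, and the log2 fold change of Nsdhl was 0.29 (SE 0.29). Ebp, the sterol isomerase, and Dhcr7, the last reductase, overlapped between groups, with log2 fold changes of 0.31 (SE 0.19) and 0.38 (SE 0.17). Tm7sf2, one of a pair of C14 reductases, was the 1 enzyme here below 0 (-0.24, SE 0.26), with 7.85 to 11.1 CPM in knockout-labelled and 8.23 to 12.6 in wild-type libraries. Nsdhl, Ebp and Mbtps2 are the 3 members on the X chromosome, and for Nsdhl the Xist-positive animal 1 was the lowest knockout-labelled library and the middle wild-type library.

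Among the SREBP controllers, Insig1 stood apart from the other 6. Insig1 (chr5:28071363-28078662, plus strand) is itself an SREBP target and feeds back on SCAP. It had 152, 181 and 173 CPM in the knockout-labelled and 69.4, 129 and 91.1 CPM in the wild-type animals, with means of 169 ± 15.3 and 96.5 ± 30.1 (SD, n = 3 each). The groups did not overlap, with wild-type animal 2 the nearest (0.81, SE 0.21; edgeR adjusted p = 0.184), and over 16 other settings the adjusted p ran from 0.0133 to 0.502. Its paralogue Insig2, which also retains SCAP in the endoplasmic reticulum, had 132, 132 and 148 CPM against 133, 135 and 124, so the groups overlapped (0.07, SE 0.12). The difference between the paralogues was not tested.

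The transcription factors and their processing genes overlapped between groups. Srebf2, which encodes SREBP-2, had 184, 175 and 211 CPM in the knockout-labelled and 197, 186 and 169 CPM in the wild-type animals (0.05, SE 0.13). Srebf1, which encodes SREBP-1a and SREBP-1c, had the highest mean level of the 7, at 322, 163 and 259 CPM against 204, 303 and 244 (-0.01, SE 0.25). Knockout-labelled animal 2 was the lowest library for Srebf1 and animal 1 the highest. Mbtps1 ranged from 118 to 125 CPM and from 121 to 131 (-0.05, SE 0.11), and Mbtps2 from 49.2 to 58.9 and from 49.8 to 58.0 (-0.05, SE 0.13). Of the exonic bases of Mbtps2, 28.4% are shared with Yy2 on the same strand, and of those of Scap 13.2% with 5830462I19Rik on the opposite strand. Scap held the 1 unadjusted p under 0.05 among lower members: 148, 113 and 112 CPM against 143, 170 and 165. Its knockout-labelled animal 1 lay within the wild-type range (-0.36, SE 0.15; edgeR adjusted p = 0.327), and after a correction for the GC content of transcripts the value was -0.11.

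**Figure D3:**
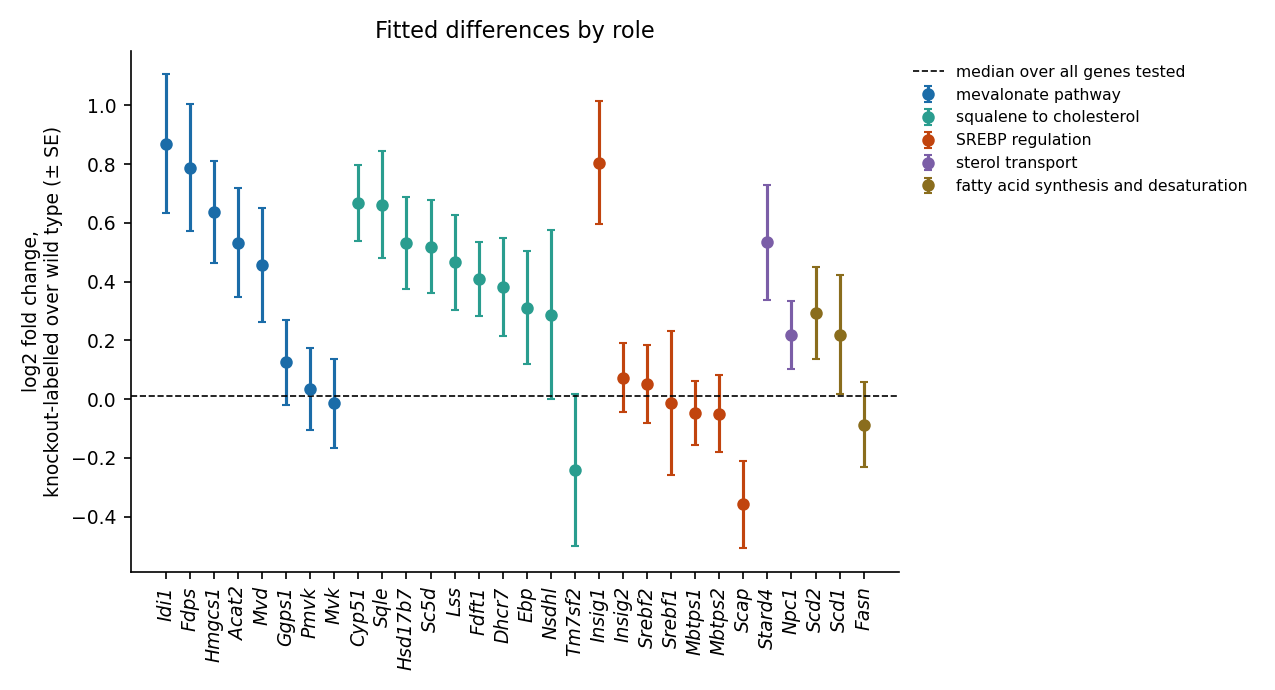
Fitted log2 fold change (points) with its SE (bars) for each member, by role; the dashed line is the median over all 15796 genes tested, 0.01. Idi1 (0.87), Insig1 (0.81) and Fdps (0.79) lie highest and Scap (-0.36) lowest.

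The sterol carriers were also higher. Stard4, a cytosolic sterol transfer protein and SREBP-2 target, had 16.7, 21.6 and 21.1 CPM in the knockout-labelled and 12.4, 15.9 and 12.8 CPM in the wild-type animals (0.53, SE 0.20). Npc1, which exports cholesterol from late endosomes and lysosomes, had 115, 113 and 122 CPM against 95.4, 110 and 95.0 (0.22, SE 0.11). Both were without overlap, but for Npc1 wild-type animal 2 came within 3 CPM of the knockout-labelled group.

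The fatty acid genes differed among themselves. Fasn, fatty acid synthase, had 160, 121 and 157 CPM in the knockout-labelled and 148, 167 and 149 CPM in the wild-type animals, with overlap (-0.09, SE 0.14). Scd1, a stearoyl-CoA desaturase, had 108, 173 and 180 CPM against 112, 136 and 148, with knockout-labelled animal 1 the lowest library of all (0.22, SE 0.20). Scd2, the desaturase isoform of nervous tissue and the most abundant member, had 1231, 1184 and 1307 CPM against 848, 1157 and 1034, and did not overlap (0.29, SE 0.16). Of the 50-base windows of Scd1, 4.66% occur in other genes, mostly Scd3, and of those of Scd2 4.01%, mostly in Scd1.

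Per kilobase of the longest annotated transcript, levels differed widely between members. Scd2 had the highest level, 186 ± 28.5 CPM per kilobase in the wild type and 228 ± 11.3 in the knockout-labelled group (SD, n = 3 each). Srebf1 (58.3 ± 11.6), Insig2 (48.5 ± 2.26), Hmgcs1 (42.6 ± 3.69), Scap (37.7 ± 3.34), Srebf2 (36.2 ± 2.85) and Insig1 (35.8 ± 11.2) followed in wild-type CPM per kilobase. The mean ± SD of each of these 6 overlapped that of its neighbour in that order. Tm7sf2 (3.58 ± 0.79), Stard4 (2.68 ± 0.37) and Idi1 (2.49 ± 0.47) were lowest, and neighbours overlapped likewise. In the knockout-labelled group Hmgcs1 (66.3 ± 14.0) and Insig1 (62.5 ± 5.67) stood beside Srebf1 (57.7 ± 18.7) in level.

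Summed over the 18 synthesis enzymes, the level was 854, 1050 and 1095 CPM in the knockout-labelled and 673, 775 and 700 CPM in the wild-type animals. The means were 999 ± 128 and 716 ± 52.9 CPM (SD, n = 3 per group), and every knockout-labelled library was above every wild-type library. The 7 SREBP controllers summed to 1122, 936 and 1072 CPM against 934, 1099 and 971, which overlapped. With each gene centred on its own mean of 6 libraries, the median over these enzymes was 0.05, 0.34 and 0.38 on the log2 scale in the knockout-labelled and -0.27, -0.07 and -0.27 in the wild-type animals. Animal 1 was thus the knockout-labelled library nearest to the wild type, and it was the lowest of its group for 12 of the 15 members without overlap. Over all 30 members, 16 were highest in knockout-labelled animal 3 and 11 were lowest in wild-type animal 3. Without knockout-labelled animal 1, 6 members passed in the edgeR quasi-likelihood test (Hmgcs1, Fdps, Sqle, Lss, Cyp51 and Sc5d), when 4.95% of all genes tested did.

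RNA of other tissues also differed between the same libraries. Markers of cornea and conjunctiva epithelium, which lies outside the dissected layer, were higher on average in the knockout-labelled group for 9 of 9 genes. Their summed level was 3700, 15468 and 12053 CPM in the knockout-labelled and 6321, 2679 and 3108 CPM in the wild-type animals. The sum in knockout-labelled animal 1 was within the wild-type range. Krt12 and Aldh3a1 were below every wild-type library there, at 206 and 377 CPM against at least 302 and 398 CPM. Krt5, Krt14, Krt13, Krt4, Krt6a, Krt15 and Upk1b lay within the wild-type range there. All of these but Upk1b were above wild-type animals 2 and 3. For Hmgcs1, Fdps, Sqle, Lss, Sc5d, Nsdhl and Scd1 knockout-labelled animals 2 and 3, rich in these markers, were well above animal 1. Animals 2 and 3 were also both above animal 1 for Acat2, Mvd, Idi1, Cyp51, Hsd17b7, Ebp, Insig1 and Stard4. In the remaining members, Fdft1, Npc1 and Scd2 among them, knockout-labelled animal 1 was above animal 2. In the wild type, animal 1 had the highest marker sum, 6321 CPM, and the lowest sum of the 18 synthesis enzymes, 673 CPM. The part of the epithelium in the values of the members was not tested.

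Other marker sets differed as well. The 8 pigment epithelium markers, 2 of them higher in the mean, summed to 36853, 21053 and 22921 CPM in the knockout-labelled and 28160, 38804 and 33591 CPM in the wild-type animals. The 7 endothelial markers, 0 of them higher in the mean, summed to 628, 539 and 444 CPM against 723, 714 and 745, without overlap. Erythroid markers, 5 of 7 of them higher in the mean, summed to 1118 CPM in knockout-labelled animal 1 and to between 4.32 and 78.4 CPM in the other 5 libraries. Neutrophil markers summed to between 56.2 and 117 CPM in knockout-labelled and between 6.01 and 11.8 CPM in wild-type libraries. Of the 6 genes, 3 were higher in the mean and 1, Ltf, was called by edgeR. Ltf, at 88.0, 46.0 and 62.2 CPM against 6.62, 1.82 and 3.25, made up most of the knockout-labelled sum. S100a8 averaged 5.63 against 0.80 CPM, S100a9 10.7 against 1.29 and Camp 1.75 against 2.02. Ngp and Elane were at 0 in all 6 libraries. The 5 fibroblast markers, 1 of them higher in the mean, summed to 8056, 8305 and 7787 CPM against 9178, 8973 and 10936. Within that set the groups did not overlap for Col1a1 (log2 fold change -1.17, SE 0.19) and Col1a2 (-0.65, SE 0.19), the chains of type I collagen. The summed endothelial, fibroblast, erythroid and neutrophil markers did not overlap between the groups, and their part in the results was not tested. Of the further sets, 3 of 6 melanocyte, 5 of 8 photoreceptor, 7 of 7 skeletal muscle and 5 of 6 macrophage markers were higher in the mean, with 0 called.

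Cell types rich in lipid synthesis were looked for directly. The 9 adipocyte markers, 5 of them higher in the mean, summed to 68.8, 82.9 and 75.6 CPM in the knockout-labelled and 46.7, 47.7 and 95.0 CPM in the wild-type animals, with overlap. Lep, the adipocyte hormone leptin, was at 0 in 5 libraries, and Adipoq, adiponectin, lay between 0.15 and 4.49 CPM. Other adipocyte markers were better counted: Fabp4, a fatty acid binding protein, had 14.5 to 26.9 CPM in knockout-labelled and 8.16 to 18.3 CPM in wild-type libraries (0.87, SE 0.34), Plin4 24.1 to 36.0 CPM over the 6 libraries and Cfd 1.20 to 33.4 CPM. The part of adipocytes in the results was not tested. Among the 8 markers of meibomian, sebaceous and Harderian glands, 2 of them higher in the mean, Krt79 was at 0 in all 6 libraries. Awat1, Elovl3 and Dgat2l6 of that set reached at most 0.46, 0.24 and 0.12 CPM, and the summed level, 94.4 to 204 CPM in knockout-labelled and 149 to 176 in wild-type libraries, was nearly all Soat1, an enzyme of many tissues. Schwann cell and myelin markers, 2 of 8 higher in the mean, summed to 966, 1276 and 1115 CPM against 890, 758 and 799, without overlap, and their part in the results was not tested.

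**Figure D4:**
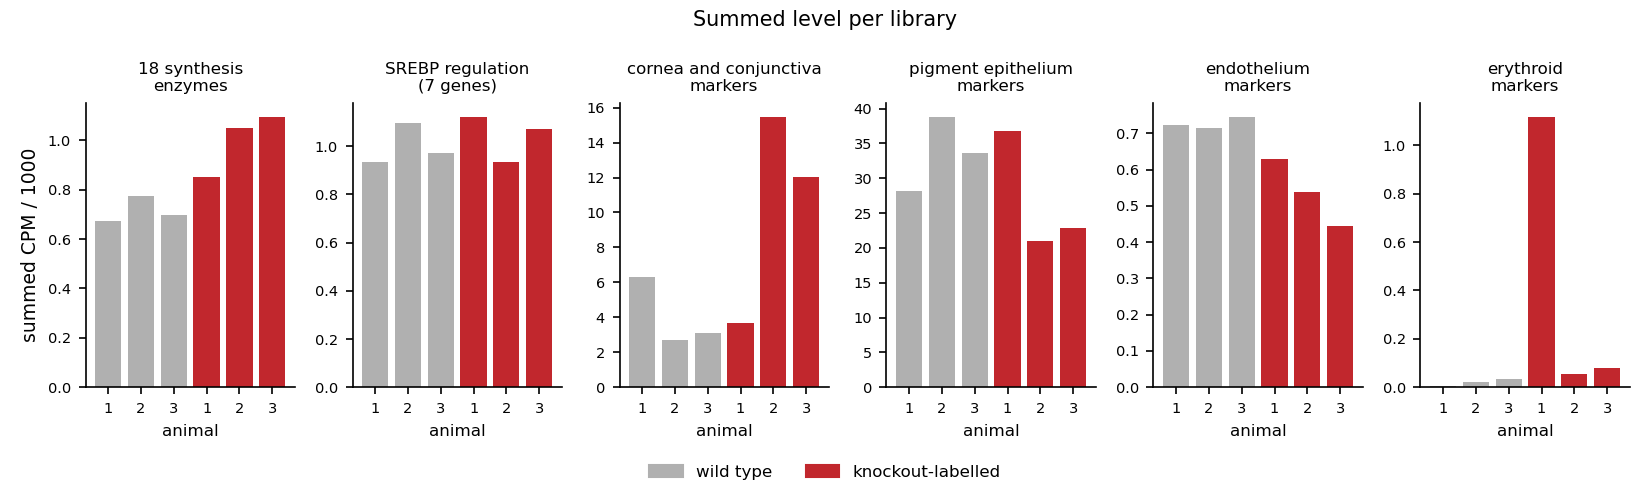
Summed CPM, divided by 1000, per library of the 18 synthesis enzymes, the 7 SREBP controllers and 4 marker sets, wild type in grey and knockout-labelled in red, animals 1 to 3. The enzymes are higher in all 3 knockout-labelled libraries (854 to 1095 CPM against 673 to 775), while cornea markers are high in animals 2 and 3 and erythroid markers in animal 1.

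Fold changes in these libraries also went with base composition. The median log2 fold change of all genes tested was 0.17 in the lowest of 10 equal bins of transcript GC content and -0.26 in the highest. Members had a median GC content of 49.1%, against 49.8% over all genes tested. Set against the median of the bin that each belongs to, 24 members were above and 6 below, and the 15 without overlap were 0.12 to 0.79 above. Mvd, with a GC content of 59.0%, was 0.72 above its bin and Insig1 (48.2%) 0.76, while Scap (59.1%) was -0.10 from its bin. With the GC trend of each library removed, the median over members was 0.30, 25 were above 0 and 0 were called by edgeR, against 0.0448% of all genes tested.

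**Figure D5:**
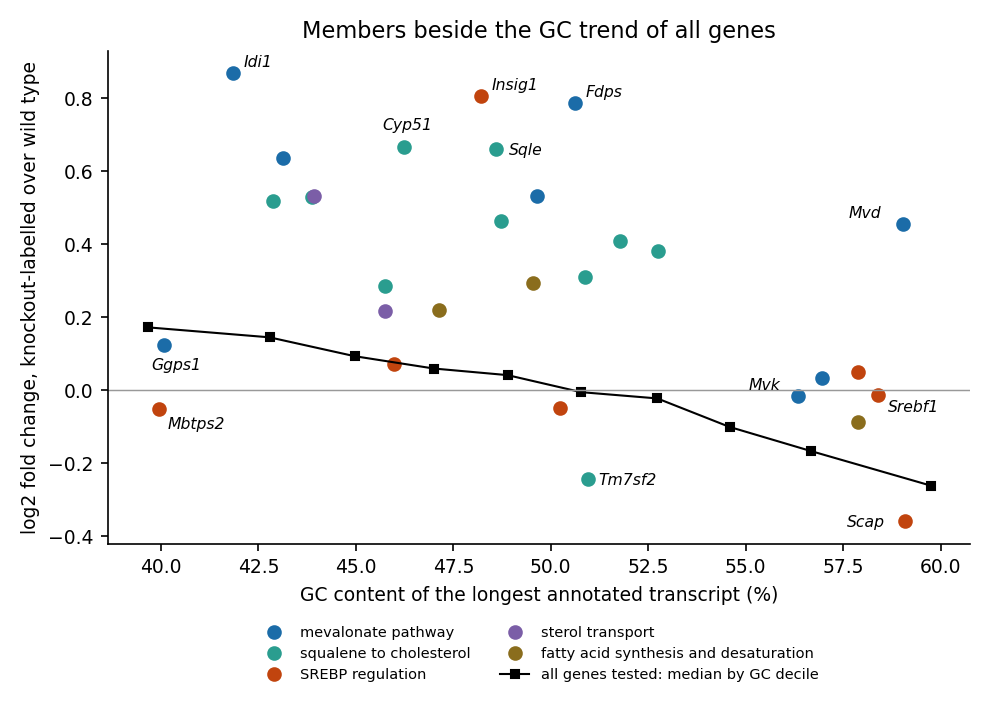
Log2 fold change of each member (coloured by role) against the GC content of its longest transcript (%), with the median of all genes tested in each of 10 bins of GC content (black squares). The black line falls from 0.17 to -0.26, and 24 of 30 members lie above the median of their bin.

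The rest of the pathway was followed in 49 other genes of sterol, isoprenoid and fatty acid synthesis. Of these, edgeR called 0, against 0.0506% of all genes tested, and DESeq2 called 4, against 3.01% of its genes. With p under 0.05 before adjustment in edgeR, 6 were higher and 4 lower, against 7.55% and 6.62% of all genes tested. For 9 every knockout-labelled library was above the wild type and for 4 every one was below, against 9.96% and 9.98% of genes tested other than the members. Sc4mol, the C4-methyl sterol oxidase, had 160, 149 and 160 CPM in the knockout-labelled and 85.7, 109 and 102 CPM in the wild-type animals (0.66, SE 0.13; edgeR adjusted p = 0.126). Mid1ip1, which promotes the activity of acetyl-CoA carboxylase, had 66.2, 69.9 and 75.5 CPM against 43.4, 53.5 and 46.8 (0.56, SE 0.13). Ch25h, which makes 25-hydroxycholesterol, an inhibitor of SREBP processing, had 15.5, 24.1 and 23.7 CPM against 10.2, 13.3 and 7.60 (1.03, SE 0.26). In all 3 genes the groups were apart in every library.

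The authors' deposited table lists all 30 members, and 3 of them, Cyp51, Insig1 and Sqle, are at a false discovery rate under 0.05 there, against 2.37% of its genes. With the sign turned to knockout over wild type, the authors' deposited table gives log2 fold changes of 0.68, 0.82 and 0.67 for these 3, and 25 members are above 0 in the authors' deposited table.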

How the data were processed

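RNA-seq counts of 6 RPE-choroid libraries, 3 per genotype, were analysed. Per the submitters' processing notes, the authors used TopHat and Bowtie (mm10) and made whole-number counts per gene with HTSeq. Versions, annotation and strand setting: not given in the sources used here, so overlapping genes cannot be told apart. The authors' deposited edgeR table holds log2 fold changes (wild type over knockout, turned here), log2 CPM, p-values and FDR. The 5 tally rows were left out of library sizes. The test was edgeR 4.0.16 (R 4.3.3) on the counts, with filterByExpr (minimum count 10, minimum total 15), TMM, and the quasi-likelihood functions glmQLFit and glmQLFTest. Genotype was the single term. Benjamini-Hochberg adjustment ran over 15796 genes, and calls needed an adjusted p under 0.05. SE is the absolute log2 fold change over the square root of F. CPM uses TMM-adjusted library sizes.

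Lengths, positions and GC content came from GENCODE M21 (GRCm38), which matched 21751 of 23420 gene rows by name and others by synonym, and promoters from RefSeq (GRCm38.p6). Members and lists were chosen with earlier results of these data known. By the naming rule, values in every library are given for the 10 members of lowest p, the paralogue pairs and the most abundant member of each role, and for the 4 other pathway genes of lowest p. Values of further members were chosen after they were seen, and 1 of those 4 genes is not reported here. Protein identities were not analysed here. Alternatives were DESeq2 size factors, upper-quartile factors, no filter, a stricter filter (3 or more libraries at CPM 1 or above), limma-voom (limma 3.58.1), DESeq2 1.42.0, edgeR's exact test, a block for the animal number, each library left out, and a GC correction. The last took out, by offsets, a lowess curve (span 0.3) of log2 CPM against GC content per library, fitted where mean log2 CPM exceeded 2. The test was tried on simulated counts.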

Additional observations from a re-analysis of the deposited data

How the results depend on the processing

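Over 16 alternatives, 24 of the 30 members kept the sign of their log2 fold change in each, among them the 15 without overlap. The call of members depended on the tool and on 1 library: 0 passed in edgeR's quasi-likelihood test, 4 in DESeq2, 2 in the edgeR exact test and, with 1 library left out, 0 to 6, the 6 coming without knockout-labelled animal 1. Of the 49 other pathway genes 4 passed in DESeq2, 3 in the exact test and 0 to 5 with 1 library left out. The shares over all genes were 3.01%, 2.26% and 0.00% to 4.95%. Over all genes the count called was 8, and it was 15 with upper-quartile factors, 22 without the low-count filter, 16 with the stricter filter, 13 with limma-voom, 458 with DESeq2, 357 with the exact test, 30 at an adjusted p under 0.1 and 0 to 795 with 1 library left out; the causes were not tested. With the animal number as a replicate block 1 gene and 0 members were called, likewise with the block and the GC correction together. Deviations of same-numbered libraries correlated at -0.10, -0.09 and -0.07, and 0 of 3 pairs correlated best with their own number. Those of libraries with different numbers correlated at -0.0047 to 0.093. Values this near 0 cannot show whether the numbers pair the animals. Animal 1 was the Xist-positive library in both groups. Signs turned for members near 0. With the GC correction, alone and with the block, the log2 fold change went to 0.15 and 0.16 for Mvk, -0.024 and -0.027 for Ggps1, 0.20 and 0.19 for Srebf1, and 0.13 and 0.12 for Fasn. With 1 library left out the range was -0.10 to 0.088 for Mvk, -0.046 to 0.10 for Pmvk, -0.25 to 0.21 for Srebf1, -0.034 to 0.10 for Srebf2 and -0.16 to 0.030 for Fasn. The median over all members ran from 0.22 to 0.41 and that over the SREBP controllers from -0.069 to 0.10. With mean instead of longest transcript lengths the median level went from 16.8 to 32.8 CPM per kilobase. The order of members also moved. Averaged over the 6 libraries, Insig2 (171), Srebf1 (170) and Scap (137) then stood above Hmgcs1 (85.6), Srebf2 (82.8) and Insig1 (76.8), with Scd2 still highest (296). Motif shares of members were the same in the 250 bases before the start.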
